A study of Mus musculus with 8 samples.

Results

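The mitochondrial respiratory chain and the ATP synthase were represented by 91 of the 19937 genes with a usable probe set. Members were chosen by gene symbol alone: symbols that begin with Nduf, Uqcr, Cox4 to Cox8 or Atp5, and Sdha, Sdhb, Sdhc, Sdhd, Cyc1 and Cycs. They comprised 34 subunits of complex I and 7 of its assembly factors, 4 subunits of complex II, 10 genes of complex III and cytochrome c, 11 widely expressed genes of complex IV, 8 tissue-restricted isoforms of complex IV, and 17 genes of complex V. The samples were 8 preparations of RNA from mouse B-lymphoid cells, 4 labelled c-jun knock out and 4 labelled wild type, each on 1 Affymetrix MoGene 1.0 ST array. All 8 share the strain label SW129/C57BL/6J. The series concerns lymphoid leukemia induced by BCR-ABL, a fusion tyrosine kinase, but the labels do not say whether these cells carried it, how Jun was deleted, the age of the animals, or whether replicates are independent cultures or animals. Every p-value thus reflects only the variation among these 8 samples, part of which may be technical. Sample titles follow 2 schemes: replicates 1 and 2 of each genotype are titled RO, and replicates 3 and 4 are titled D (knockout) or F (wild type). The labels give no meaning for the schemes, and they are not called batches here.

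Complexes I and II pass electrons from NADH and succinate to ubiquinone, complex III passes them to cytochrome c, and complex IV passes them to oxygen. Complexes I, III and IV pump protons across the inner mitochondrial membrane, and complex V uses the return flow to make ATP. Most subunits are encoded in the nucleus, a few core subunits in mitochondrial DNA, and the nuclear genes are known as targets of the transcription factors NRF1 and GABP and their coactivators. Proliferating lymphoid precursors and leukemic cells use the chain for ATP, for nucleotide synthesis and for redox balance. The question put to the data was whether transcripts of these complexes differed between genotypes in cells lacking c-JUN, a subunit of the AP-1 transcription factor.

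Values are log2 signals as deposited, scaled by the authors to a common mean on every array. Jun was at 6.99, 6.46, 7.02 and 6.97 in knockout replicates 1 to 4 and at 8.82, 8.84, 10.55 and 8.77 in wild type replicates 1 to 4. The groups did not overlap (2-sided exact permutation p = 0.0286, the smallest that 70 assignments of 4 and 4 arrays allow), while the limma adjusted p over all genes was 0.106. The 9 measured B-lineage markers, Cd79a and Ebf1 among them, lay above the median of their own array in all 8 arrays. So did 1 of 8 myeloid markers (Lyz2), 1 of 6 T and NK markers (Cd3e), 1 of 3 erythroid and megakaryocyte markers (Itga2b), 2 of 5 stromal markers and 3 of 4 muscle markers. Array medians ran from 6.93 in knockout 2 to 7.41 in wild type 1 and 7.42 in wild type 3. The ranges of the genotypes overlapped, with wild type 4 at 6.99 and knockout 3 and knockout 4 at 7.22. The median log2 difference (knockout minus wild type throughout) was -0.11 over all 19937 genes, of which 28.0% were higher in knockout; it was -0.25 within the RO scheme and 0.0097 within D/F. After quantile normalization, which gives every array the same distribution, it was -0.024. The members and each complex are therefore set beside the 200 other genes nearest to each member in mean signal, here called genes of the same signal, under both scalings. Differences of single genes are as deposited unless stated.

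None of the 91 members passed the test between genotypes, and a gene is said to be called below where it did. Transcripts of the chain were abundant in both: all 83 members other than the tissue-restricted isoforms lay above the median of their own array in all 8 arrays, and 57 members were among the 1994 genes of highest signal. The count of members with a limma adjusted p under 0.05 was 0 of 91, against 1 gene or 0.00502% over all genes, and the smallest adjusted p of a member was 0.878. After quantile normalization it was again 0 of 91 against 0.00502%, with a smallest adjusted p of 0.971. At an unadjusted limma p under 0.05 there was 1 member, Cox7a2, against 2.25% of all genes. Quantile normalization left 1, again Cox7a2, against 3.4% of all genes. The 95% confidence interval of the difference lay within 1.5-fold in either direction for 78 of 91 members, and within 2-fold for all 91. These intervals take the 8 samples as independent, which the labels do not show. In RNA from bulk cells, fewer cells of a type and less RNA per cell cannot be told apart.

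As deposited, 61 members were higher and 30 lower in knockout, with a median difference of 0.049, which is 0.16 above that of all genes. The genes of the same signal had a median difference of 0.035. Members exceeded their own genes of the same signal by a median of 0.021, and 52 of 91 lay above them. After quantile normalization 55 members were higher and 36 lower, with a median of 0.020 against -0.0030 for the genes of the same signal, and the median excess was 0.029. The gap of 0.16 to all genes thus came down to 0.021 when genes of like signal were the reference. When all genes were ordered by signal and cut into 10 bins of equal size, the median difference went from -0.19 in bin 4 to 0.042 in the brightest, bin 10. After quantile normalization the median of every bin lay between -0.042 and 0.0051.

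**Figure D1:**
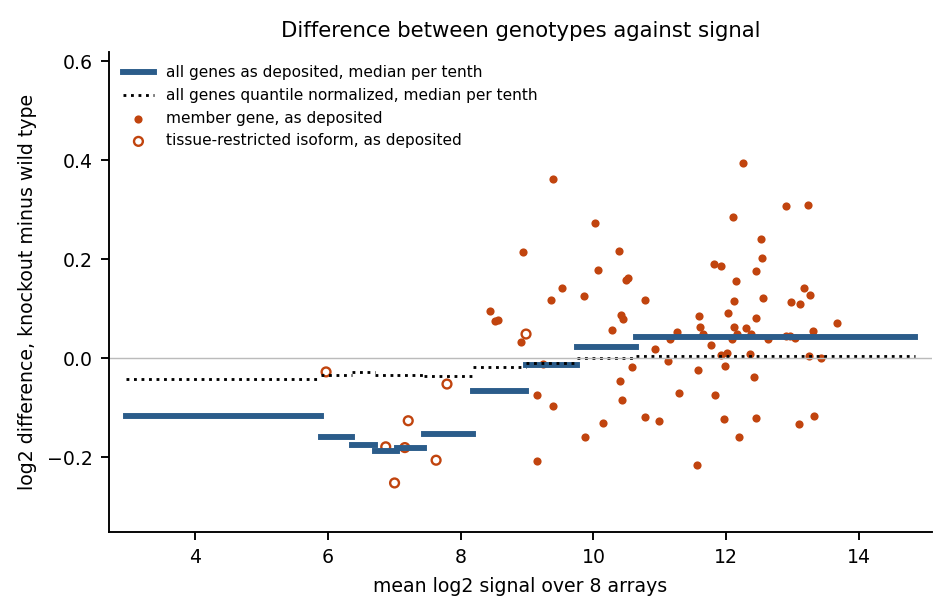
Log2 difference between genotypes (vertical axis, knockout minus wild type) against mean log2 signal over 8 arrays (horizontal axis). Points are the 91 members as deposited, open circles the 8 tissue-restricted isoforms; blue bars are medians of all genes per bin of signal (10 bins) as deposited and dotted lines the same after quantile normalization. The members scatter around the upper bars, which reach 0.042, and 7 of the 8 restricted isoforms lie below 0, where the bars of dim genes also lie; Cox7a1, the brightest of them, is at 0.049.

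Complex by complex, the median excess over genes of the same signal was largest for the 7 complex I assembly factors with Ndufaf names. Complex I assembly factors without such names were listed with those of other complexes, described below. That list had a median excess of -0.010 as deposited. The median difference was 0.043 for complex I, 0.077 for its assembly factors, 0.020 for complex II, 0.080 for complex III with cytochrome c, 0.11 for complex IV and 0.046 for complex V. After quantile normalization these became 0.0027, 0.13, -0.033, 0.051, 0.070 and 0.0013 in the same order. Complexes I and V were thus near 0 once arrays shared a distribution, and complex II changed sign. The median excess over genes of the same signal, as deposited, was -0.0058 for complex I, 0.14 for the assembly factors, -0.029 for complex II, 0.051 for complex III with cytochrome c, 0.062 for complex IV and -0.00024 for complex V. With each array left out in turn it ran from -0.041 to 0.049 for complex I, from 0.024 to 0.17 for the assembly factors, from -0.064 to 0.0029 for complex II, from 0.030 to 0.084 for complex III, from 0.0078 (without wild type 3) to 0.11 (without wild type 4) for complex IV, and from -0.020 to 0.034 for complex V. Only those of the assembly factors, complex III and complex IV thus kept 1 sign. These medians carry no test, because members are measured on the same 8 arrays and are not replicates.

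**Figure D2:**
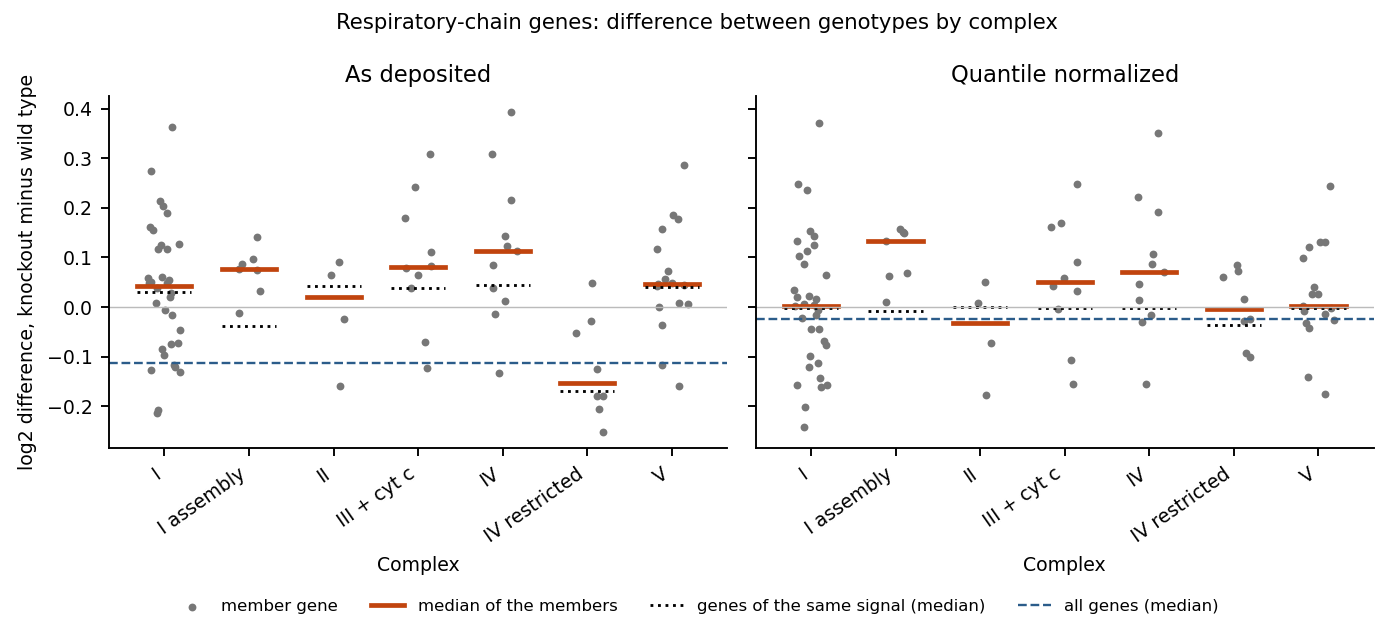
Log2 difference between genotypes (vertical axis) of each member (points) by complex (horizontal axis), as deposited and after quantile normalization, with the median of the members (orange), of their genes of the same signal (dotted) and of all genes (dashed blue). Medians of complexes I and V fall to 0.0027 and 0.0013 after normalization, while that of the complex I assembly factors is 0.077 before and 0.13 after.

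Groups that did not overlap were found for 3 members. Cox7a2 and Ndufb5 had all 4 knockout samples above all 4 wild-type samples, against 0.266% of all genes. Ndufa8 had all 4 below, against 1.03% of all genes. After quantile normalization 1 member, Cox7a2, was higher without overlap, against 0.667% of all genes, and 0 were lower, against 1.55%. For these 3 genes, picked only because their groups did not overlap as deposited, the 150 bases before the annotated starts are shown. They are from RefSeq on GRCm38.p6, 5′ to 3′ on the strand of the gene. The window of Cox7a2 is chr9:79759854-79760003 on the minus strand, that of Ndufb5 chr3:32736913-32737062 on the plus strand, and that of Ndufa8 chr2:36049339-36049488 on the minus strand. Capitals mark the letters GGGCGG, bound by SP1, and GCGCANGCG, bound by NRF1, on either strand.
Cox7a2: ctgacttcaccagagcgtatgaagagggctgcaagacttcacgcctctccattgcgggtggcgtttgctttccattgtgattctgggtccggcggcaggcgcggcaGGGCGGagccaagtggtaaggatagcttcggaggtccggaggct
Ndufb5: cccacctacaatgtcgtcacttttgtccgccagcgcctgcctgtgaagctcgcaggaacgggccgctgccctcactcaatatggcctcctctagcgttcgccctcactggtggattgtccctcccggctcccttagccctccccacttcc
Ndufa8: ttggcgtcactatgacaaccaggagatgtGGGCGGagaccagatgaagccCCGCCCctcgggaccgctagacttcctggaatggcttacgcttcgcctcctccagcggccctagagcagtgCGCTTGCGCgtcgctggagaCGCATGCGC
The Ndufa8 window holds the SP1 letters at 121 and 100 bases and the NRF1 letters at 29 and 9 bases before the start. The Cox7a2 window holds the SP1 letters at 44 bases, and the Ndufb5 window holds neither.

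In the 250 bases before the start, available for 74 of the 91 members, 2 further motifs bear on a knockout of c-JUN. AP-1 binds TGANTCA, and JUN dimers with ATF proteins bind the cyclic AMP response element (CRE) TGACGTCA. Both read the same on either strand as searched and neither contains the other. The AP-1 letters were in 5 of 74 members (6.76%), against 7.11% of the 15562 promoters of all genes and 4.25% of the 4820 promoters of other genes between the 5th and 95th percentile of the signals of the 83 members that are not tissue-restricted isoforms (8.96 to 13.26), a range in which 7 of the 8 restricted isoforms do not lie. The CRE letters were in 5 of 74 members (6.76%), against 2.34% of all promoters and 3.09% of those other genes. These shares are descriptions, and a match is not a bound site. The 10 stretches are shown with the letters in capitals, from RefSeq on GRCm38.p6 and 5′ to 3′ on the strand of the gene, first those with AP-1 letters and then those with CRE letters.
Ndufa5 (chr6:24527606-24527652, minus): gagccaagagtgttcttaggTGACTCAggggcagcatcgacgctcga
Ndufa9 (chr6:126849365-126849394, minus): cctTGAGTCAgtccttggttaactctgaaa
Ndufa13 (chr8:69902021-69902063, minus): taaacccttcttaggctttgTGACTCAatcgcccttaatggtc
Uqcrh (chr4:116075247-116075293, minus): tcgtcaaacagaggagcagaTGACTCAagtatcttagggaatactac
Atp5c1 (chr2:10080730-10080760, minus): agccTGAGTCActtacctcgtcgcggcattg
Ndufa10 (chr1:92473798-92473845, minus): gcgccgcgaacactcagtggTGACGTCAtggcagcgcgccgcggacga
Ndufa11 (chr17:56717584-56717631, plus): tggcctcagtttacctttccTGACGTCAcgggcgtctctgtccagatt
Ndufb2 (chr6:39592531-39592564, plus): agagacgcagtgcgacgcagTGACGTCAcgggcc
Uqcrfs1 (chr13:30545318-30545365, minus): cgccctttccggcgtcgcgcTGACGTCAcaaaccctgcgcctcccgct
Cycs (chr6:50566711-50566758, minus): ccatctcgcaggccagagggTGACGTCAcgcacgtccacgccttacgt
The AP-1 letters lay between 23 bases (Ndufa13) and 247 bases (Ndufa9) before the start, and the CRE letters between 14 bases (Ndufb2) and 169 bases (Cycs). Members with the AP-1 letters had a median difference of 0.054, against 0.049 for the other members with a promoter, and 4 of the 5 were higher in knockout. Members with the CRE letters had a median difference of 0.039 against 0.050 for the rest. The medians with and without each set of letters thus lay close together.

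Motifs of the known regulators were searched in the same windows on both strands. The NRF1 letters GCGCANGCG were in 20.3% of the 74 members, against 8.76% of all promoters and 15.98% of other genes in the members' signal range. The GABP and ETS letters CCGGAAG were in 17.6% of members, 10.7% of all and 19.4% of those other genes. The SP1 letters GGGCGG, in 39.2% of members, were in 49.4% of all promoters and in 67.8% of those other genes. The CCAAT box was in 44.6%, 38.9% and 41.0% in the same order, and the YY1 letters AAGATGGC were in 1 member, Atp5j (1.35%, against 1.86% of all). The members' share with NRF1 letters stood nearer to that of the other genes in this range than to that of all promoters. Those other genes share a range with the members and were not matched to them in signal gene by gene. The 15 members with NRF1 letters had a median difference of 0.064, and the other members with a promoter 0.049.

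Complex I takes electrons from NADH through a peripheral arm and pumps protons in a membrane arm. Of its 34 subunits, 21 were higher and 13 lower in knockout, from -0.21 (Ndufa8) to 0.36 (Ndufs5), with 0 called. Ndufs1, the iron-sulfur subunit in the peripheral arm, averaged 10.60 ± 0.10 (SD, n = 4) in the knockout samples and 10.44 ± 0.20 (SD, n = 4) in the others. Its difference of 0.16 had an SE of 0.14, and the groups overlapped. Ndufv1, which holds the NADH binding site, was at 10.93 ± 0.089 (SD, n = 4) and 11.06 ± 0.22 (SD, n = 4), a difference of -0.13 (SE 0.13).

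Ndufa8, an accessory subunit on the intermembrane space side, was at 11.47, 11.39, 11.45 and 11.50 in knockout and at 11.96, 11.58, 11.61 and 11.52 in wild type. Wild type 1 was highest, and the gap between the groups was from 11.50 to 11.52. The difference was -0.21 (SE 0.13, limma adjusted p = 0.878), 1.16-fold lower, and it was -0.11 without wild type 1. Ndufb5, an accessory subunit of the membrane arm, was at 11.98, 11.95, 11.88 and 11.88 in knockout and at 11.42, 11.83, 11.84 and 11.83 in wild type. Its 4 knockout values sat just above 3 of the wild-type values, with wild type 1 far below. The difference of 0.19 (SE 0.13, limma adjusted p = 0.878) was 0.078 without wild type 1.

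Ndufs5, another accessory subunit of the membrane arm, had the largest difference of complex I. Its signals were 9.76, 9.87, 9.57 and 9.10 in knockout and 8.80, 9.09, 9.56 and 9.38 in wild type. Knockout replicates 1 and 2 were high and wild type replicates 1 and 2 low, while among the D/F samples only knockout 4 lay below the wild-type samples. The difference was 0.36 overall (SE 0.22, limma adjusted p = 0.878), 0.86 within the RO scheme and -0.14 within D/F. Ndufb6, also of the membrane arm, had differences of 0.20 in each scheme, with means of 12.65 ± 0.15 (SD, n = 4) for knockout and 12.44 ± 0.17 (SD, n = 4) for wild type.

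Assembly factors of complex I are not part of the finished enzyme; they insert cofactors and join its modules. Of the 7, 6 were higher in knockout as deposited and all 7 after quantile normalization, with 0 called. Ndufaf4, which acts in building the peripheral arm, was at 9.63, 9.40, 9.77 and 9.60 in knockout and at 9.39, 9.59, 9.33 and 9.52 in wild type. Its groups overlapped, with a difference of 0.14 (SE 0.15). Ndufaf2, a late-acting factor, had 0.097 (SE 0.17), Ndufaf3, a partner of Ndufaf4, 0.087 (SE 0.17), and Ndufaf1, a membrane-arm factor, -0.012 (SE 0.17). The median over the 7 was 0.023 within the RO scheme and 0.25 within D/F. Their median excess over genes of the same signal was 0.14 with all arrays and 0.024 without wild type 3, where Ndufaf6 was at 8.02 against 8.48 to 8.98 in the other wild-type samples.

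Complex II, succinate dehydrogenase, is also an enzyme of the citrate cycle and has no subunit encoded in mitochondrial DNA. Its 4 genes split, 2 higher and 2 lower, with 0 called. Sdha, the flavoprotein that oxidizes succinate, was at 12.15, 11.99, 12.14 and 12.05 in knockout and at 11.91, 12.02, 12.03 and 11.999 in wild type. These 8 values spanned a narrow range, and the groups overlapped (difference 0.092, SE 0.11). Sdhb, the iron-sulfur subunit, averaged 12.11 ± 0.076 (SD, n = 4) for knockout and 12.27 ± 0.41 (SD, n = 4) for wild type. Wild type 1 was at 12.87 and the other wild-type samples between 11.99 and 12.18, and the difference went from -0.16 to 0.024 without wild type 1. The membrane anchors Sdhc and Sdhd had differences of -0.024 (SE 0.13) and 0.064 (SE 0.12).

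Complex III and cytochrome c, the mobile carrier that it reduces, had 8 members higher and 2 lower, with 0 called. Uqcrb, a subunit near the quinone site, was at 13.15, 13.03, 13.08 and 12.98 in knockout and at 12.31, 12.71, 12.89 and 13.09 in wild type. The knockout values were close together and the wild-type values spread, with wild type 4 inside the knockout range. The difference was 0.31 (SE 0.15, limma adjusted p = 0.878), a 1.24-fold higher signal, and it was 0.18 without wild type 1. Uqcrh, the hinge protein, had a like pattern: 12.66 ± 0.17 (SD, n = 4) for knockout, 12.41 ± 0.36 (SD, n = 4) for wild type with wild type 1 at 11.92, and a difference that went from 0.24 to 0.036 without that array.

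None of the catalytic and core subunits of complex III passed the test either. The Rieske protein gene Uqcrfs1 had a difference of 0.18 (SE 0.14), and Cyc1, which encodes cytochrome c1, had 0.039 (SE 0.14). The core subunits Uqcrc1 and Uqcrc2 had -0.12 (SE 0.13) and 0.082 (SE 0.12). Cycs, somatic cytochrome c, which also triggers caspases when it leaves mitochondria, was at 13.17, 13.28, 13.18 and 13.07 in knockout and at 13.18, 13.15, 13.003 and 12.93 in wild type. The groups overlapped, and the difference was 0.11 (SE 0.10).

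Complex IV, cytochrome c oxidase, surrounds a mitochondrially encoded core with small nuclear subunits. Of the 11 widely expressed members 9 were higher and 2 lower. Cox7a2, the widely expressed form of subunit VIIa, had the smallest p of all members. It was at 12.56, 12.43, 12.46 and 12.38 in knockout and at 12.26, 11.89, 11.78 and 12.32 in wild type. The knockout samples were close together, and wild type replicates 2 and 3 lay well below the other 2. The signal was 1.31-fold higher in knockout (difference 0.39, SE 0.15, 95% interval 0.075 to 0.71). The unadjusted limma p was 0.020, rank 131 among all genes, and the adjusted p was 0.878. RO samples alone gave 0.42 and D/F samples alone 0.37, and the value was between 0.29 and 0.51 with each array left out, and 0.35 after quantile normalization.

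Cox6c, a small subunit of the membrane part, was at 13.49, 13.37, 13.41 and 13.28 in knockout and at 12.44, 13.20, 13.30 and 13.36 in wild type. Only wild type 1 was far from the rest, and the difference of 0.31 (SE 0.18) was 0.098 without it. Cox4i1, an early-assembling subunit, had -0.015 (SE 0.14), Cox6b1, on the cytochrome c side, 0.039 (SE 0.14), and Cox8a 0.11 (SE 0.12). Cox6a1 had 0.12 (SE 0.16) with all arrays and 0.30 without wild type 1, where its signal was 13.21 against 12.09 to 12.44 in the other wild-type samples. Cox7a2l, which links complexes III and IV in supercomplexes, had 0.22 (SE 0.13), while its dimmer probe set had 0.042. Cox7b, chosen after its values were seen, had 0.14 (SE 0.11) in the probe set used, of mean signal 13.17. Its dimmer probe set, of mean signal 11.69, had 0.67, above the difference of Cox7a2, and was not tested by itself. Ndufa4, first assigned to complex I and now placed in complex IV, had 0.085 (SE 0.22) and ranged from 11.06 to 12.05 over the 8 arrays.

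**Figure D3:**
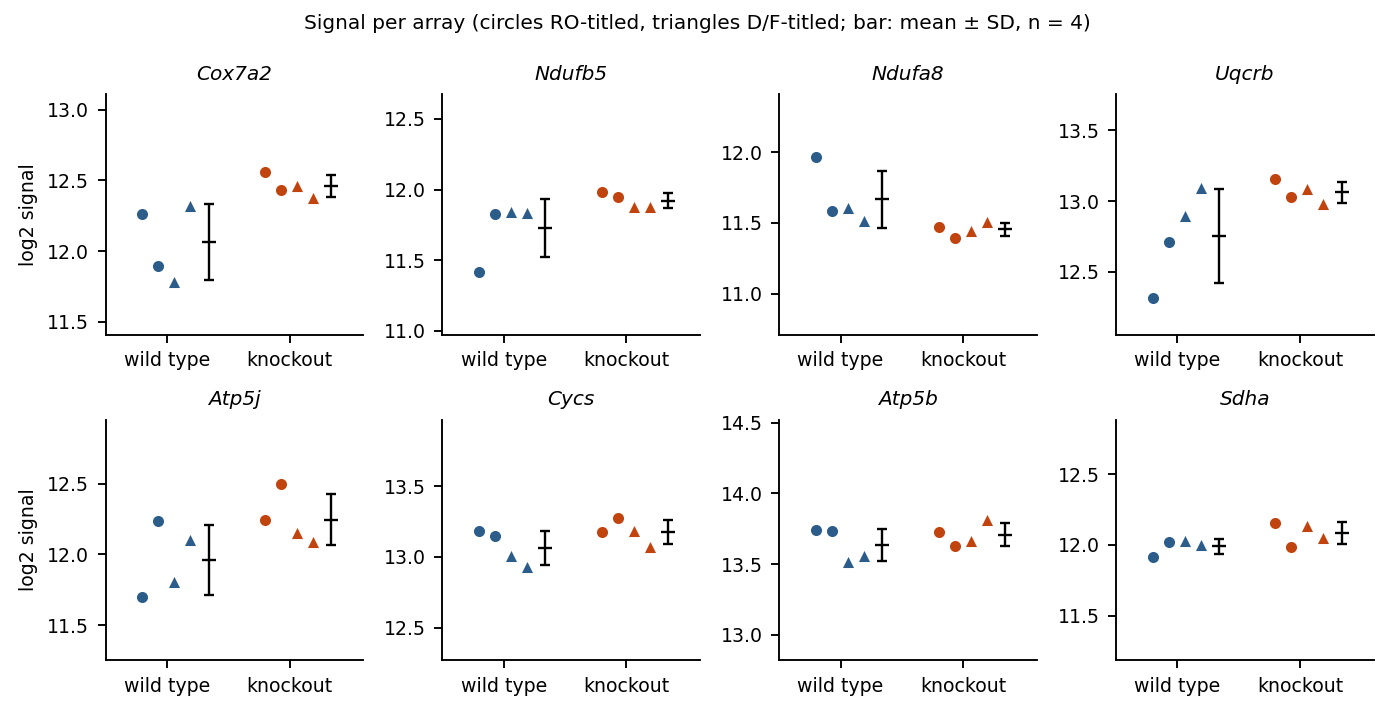
Log2 signal per array (vertical axis, a span of equal length in each panel) for 8 members by genotype; circles are RO-titled and triangles D/F-titled samples, and the bar is mean ± SD (n = 4). Cox7a2 separates the groups, with knockout between 12.38 and 12.56 and wild type between 11.78 and 12.32, and in Ndufb5, Ndufa8 and Uqcrb the widest gap within a group is that of wild type 1.

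The 8 tissue-restricted isoforms of complex IV fell on both sides of the array medians. Cox7b2 and Cox8b, forms of testis and of heart and skeletal muscle, were above the array median in 0 of 8 arrays, Cox6b2, a testis form, in 1, Ndufa4l2, a hypoxia-induced relative of Ndufa4, in 3 and Cox8c, a testis form, in 6. Cox4i2 (lung), Cox6a2 and Cox7a1 (heart and skeletal muscle) were above it in all 8. As deposited 7 of the 8 were lower in knockout, with a median of -0.15 against -0.17 for genes of the same signal. After quantile normalization 4 were lower, and the median was -0.0035. Cox6b2, with means of 6.88 ± 0.18 (SD, n = 4) for knockout and 7.13 ± 0.42 (SD, n = 4) for wild type, had a difference of -0.25 as deposited and -0.10 after normalization. Cox6a2 was at 8.69 in knockout 4 and between 7.37 and 7.51 in the other knockout samples, and its highest wild-type signal was 8.30, in wild type 3. Those are also the 2 arrays where Klrb1c, 1 of the 6 T and NK markers, was highest. It was at 8.93 in knockout 4, at 10.54 in wild type 3 and at most 6.78 elsewhere. The other markers of that list are not given here by array. The mean log2 signal of the 6 T and NK markers ran from 6.44 to 7.09 in knockout and from 6.47 to 7.62 in wild type; its part in the Cox6a2 signal was not tested. The mean log2 signal of 4 muscle markers ran from 7.12 to 7.54 in knockout and from 7.27 to 7.84 in wild type, and Ckm, Acta1 and Tnnt3 were above the array median in all arrays; their part in these signals was not tested.

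Complex V couples proton flow to ATP synthesis through a catalytic head, a central stalk, a peripheral stalk and a membrane ring. Of its 17 members 14 were higher and 3 lower as deposited, and 9 higher and 8 lower after quantile normalization, with 0 called in either. These counts rest on the brightest probe set of each gene. Atp5g2 counted as higher at 0.00082 as deposited, while its other probe sets had -0.092 and -0.27. Atp5l counted as lower at -0.037, while its other probe sets had from 0.071 to 0.21. The catalytic beta subunit Atp5b was at 13.73, 13.63, 13.66 and 13.81 in knockout and at 13.74, 13.73, 13.52 and 13.55 in wild type. The groups overlapped and the difference was 0.072 (SE 0.11). The alpha subunit Atp5a1 had 0.042 (SE 0.13). Atp5j, coupling factor 6 of the peripheral stalk, had the largest difference of the complex. It was at 12.24, 12.50, 12.15 and 12.09 in knockout and at 11.70, 12.24, 11.80 and 12.10 in wild type. Replicates 1 and 3 of wild type were low and the others lay within the knockout range, with a difference of 0.29 (SE 0.15, limma adjusted p = 0.878). Subunit b of the same stalk, Atp5pb, had 0.18 (SE 0.13), Atp5e of the central stalk 0.16 (SE 0.13), and Atp5k, subunit e of the membrane part, -0.16 (SE 0.17).

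Wild type 1 often held an extreme signal, in both directions, in these genes and in others of their signal range. It was more often highest than lowest in members, and more often lowest than highest in the other genes. Those other genes share a range with the members and were not matched to them in signal gene by gene. Over the 83 members without the restricted isoforms wild type 1 held the highest of the 8 signals in 29 (34.9%) and the lowest in 17 (20.5%) as deposited. Among the 5869 other genes of that same range it held the highest in 20.5% and the lowest in 32.2%. After quantile normalization it was highest in 32 (38.6%, against 24.6%) and lowest in 19 (22.9%, against 28.8%). Its signal differed by more than 0.3 from the mean of the other 7 arrays in 37 of 83 members, 23 higher and 14 lower, or 44.6% against 48.8% of the other genes. The deviations ran from -0.98 (Cox6c) to 1.21 (Ndufa6, an accessory subunit of complex I). Uqcrq of complex III (0.89), Ndufb2 of complex I (0.77) and Atp5l of complex V (0.76) were also high there, and Uqcrb (-0.72), Ndufs5 (-0.69) and Uqcrh (-0.68) low, so subunits of the same complex deviated in opposite directions on that array. Wild type 3 and wild type 4 held the lowest signal of 26 and 21 of the 83 members as deposited, against 12.8% and 7.21% of the other genes.

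**Figure D4:**
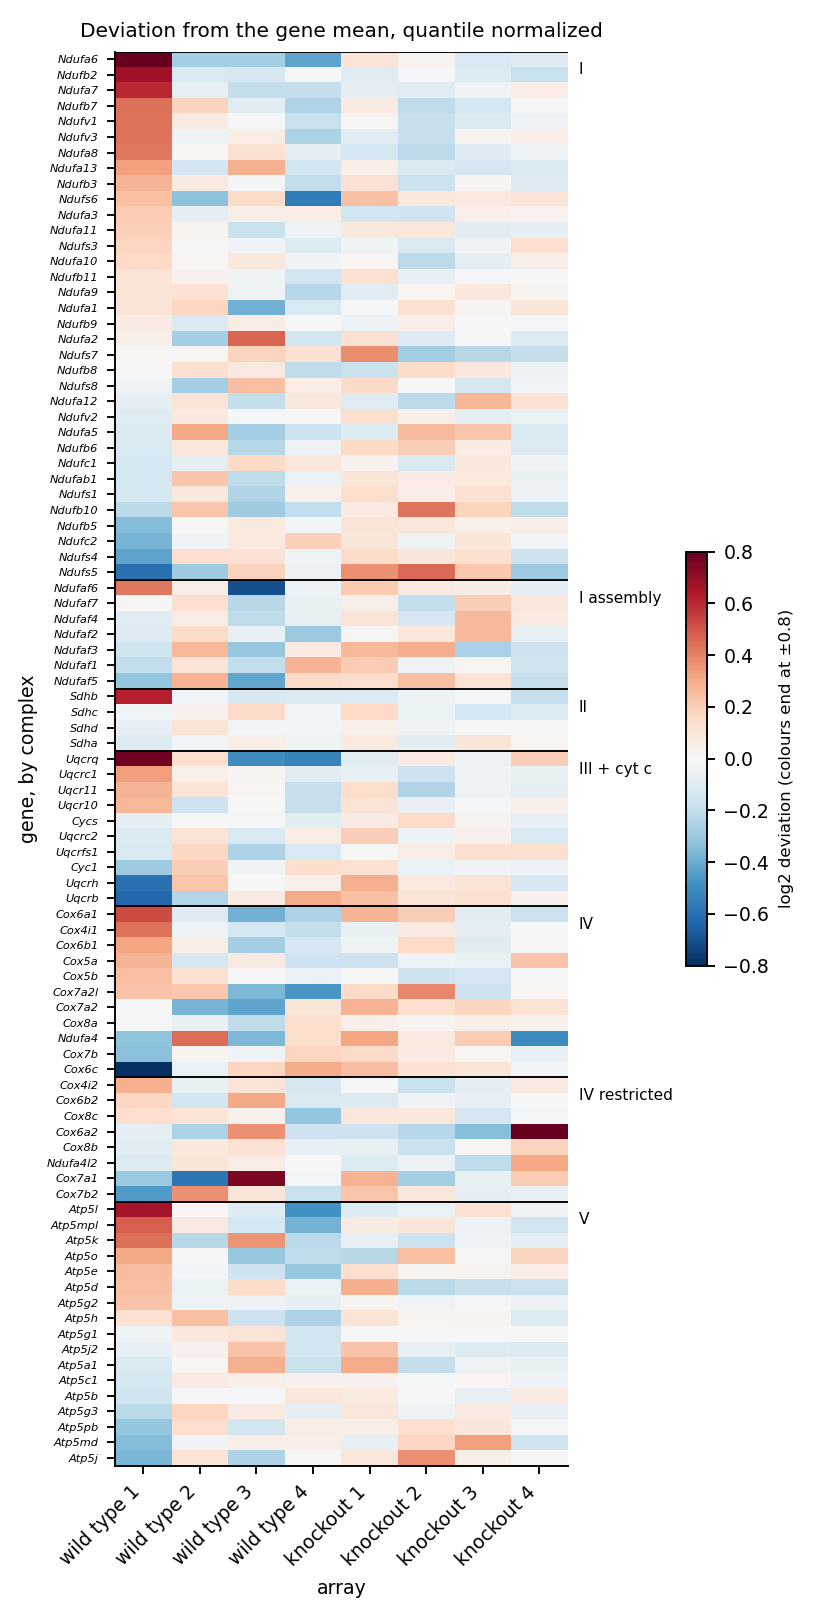
Log2 deviation of each member from its own mean over 8 arrays after quantile normalization (colour, ending at ±0.8), genes in rows by complex and arrays in columns. The first column, wild type 1, holds the strongest colours of both signs, from Ndufa6 (high) to Cox6c (low), while most cells of the knockout columns are pale.

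**Figure D5:**
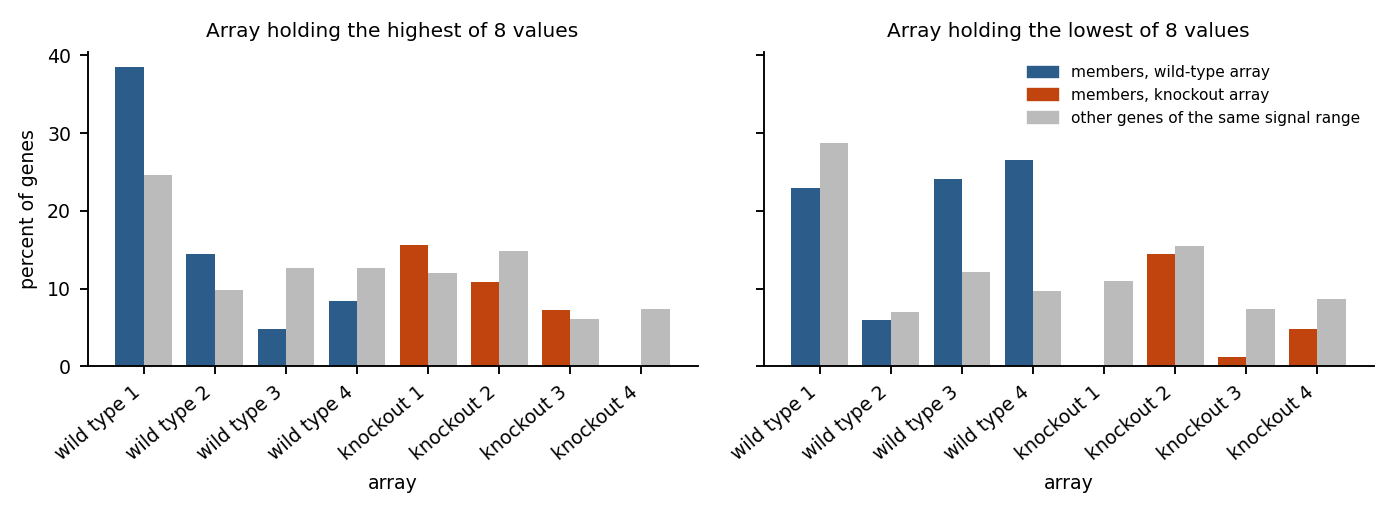
Share of genes in percent (vertical axis) whose highest (left) or lowest (right) of 8 quantile-normalized signals fell on each array (horizontal axis), for 83 members (coloured) and 5869 other genes of the same signal range (grey). Wild type 1 held the highest signal in 38.6% of members, and wild type 3 and 4 the lowest in 24.1% and 26.5%.

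Whether the difference between genotypes itself differed between the naming schemes was tested as an interaction. In 0 of 91 members did it pass adjustment, against 0.0301% of all genes, and in 4 it had an unadjusted p under 0.05, against 5.38%. These were Ndufs5 and Uqcrb, with larger differences in the RO samples, and Uqcrq and Atp5l, chosen after their values were seen. Uqcrq had -0.48 within RO and 0.61 within D/F, and Atp5l -0.46 and 0.39. The Atp5l values rest on the brightest of its 5 probe sets, whose overall difference was -0.037; those of the other 4 were from 0.071 to 0.21. The sign was the same in both schemes in 41 of 91 members. The median difference of the members was -0.0025 within RO, where 45 were higher, and 0.083 within D/F, where 69 were higher. After quantile normalization it was -0.018 with 45 higher and 0.031 with 56 higher. As deposited and relative to genes of the same signal these were -0.023 and 0.049.

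The naming schemes were also compared with each other across genotypes. Members were lower in D/F than in RO samples in 70 of 91, with a median of -0.082 against 0.051 over all genes and -0.0064 for genes of the same signal. Complex IV had a median of -0.18 and complex V of -0.14. In 0 members did the difference pass adjustment, against 0.0201% of all genes. An unadjusted p under 0.05 was found for 6 members, against 3.12%: Cox6a1 (-0.52), Cox7a2l (-0.49), Uqcrq (-0.50), Atp5mpl (-0.40), Cox6b1 (-0.32) and Atp5h (-0.29). Uqcrq, Atp5mpl and Atp5h were chosen after their values were seen. Of these 6, 3 belong to complex IV and 2 to complex V.

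Lists of genes that act with the chain, and of ribosomal proteins, each gave the same count of 0 called. Of 13 subunits encoded in mitochondrial DNA 2 were measured, COX2 of complex IV (0.20, SE 0.12) and ND3 of complex I (0.064, SE 0.10). Of 36 measured assembly factors of other complexes or outside the Ndufaf names, 16 were higher and 20 lower, with a median of -0.019. Among them Sdhaf4, which acts on Sdha, had -0.79 (SE 0.37), with knockout 3 at 6.28 and the other knockout samples between 7.98 and 8.70. Cox10, of heme synthesis for complex IV, had -0.29 (SE 0.14). Of 19 regulators 10 were higher and 9 lower, with a median of 0.051. The largest difference among the regulators described was that of Ppargc1a, the coactivator PGC-1 alpha, at 0.57 (SE 0.24), but its signal was below the array median in 7 of 8 arrays, so the size is uncertain. Tfb2m, a factor of mitochondrial transcription, had 0.32 (SE 0.15).

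None of the other regulators described here had an unadjusted limma p under 0.05. Nrf1 had 0.055 (SE 0.14), Gabpa 0.14 (SE 0.15), and Tfam, which packages mitochondrial DNA, 0.21 (SE 0.15). Esrra had -0.11 (SE 0.16), Ppargc1b -0.12 (SE 0.17) and Yy1 -0.021 (SE 0.13). Of 19 measured genes of the citrate cycle and pyruvate entry 11 were higher and 8 lower, with a median of 0.024, among them Suclg2 (0.36, SE 0.22) and Dld (0.31, SE 0.17). Of 77 mitochondrial ribosomal protein genes 39 were higher and 38 lower (median 0.0032), and of 65 cytosolic ones 40 were higher and 25 lower (median 0.035). Mrpl41 had 0.42 (SE 0.19), Mrps18c 0.31 (SE 0.15), Rpl7a 0.33 (SE 0.15) and Rplp2 -0.80 (SE 0.27), none past the adjusted threshold. Before adjustment 3 of the 218 genes of these lists had a limma p under 0.05 (Ppargc1a, Mrpl41 and Rplp2), against 2.25% of all genes. After quantile normalization there were 10, of which 8 encode cytosolic ribosomal proteins, 4 higher and 4 lower, against 3.4% of all genes.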

How the data were processed

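The authors deposited log2 values per probe set and sample. MAS5 is named in the submitters' processing notes; its version and settings were not given in the sources used here. It was designed for mismatch probes, absent from this array type, which leaves the summarization uncertain. From the values, each array has a linear mean of 500 after 2% trimming, which does not equalize distributions, so differences can depend on signal. No detection calls were used. Of 34760 probe sets, 21640 carried 1 gene symbol; the one with the highest mean represented each of 19937 genes. The members had 117 single-symbol probe sets; in 8 of the 18 members with more than 1, these shared 1 sign. A further 6 probe sets with several symbols were left out.

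Groups came from the genotype label and replicates were numbered in accession order. The fit used limma 3.58.1 in R 4.3.3 (lmFit, eBayes with trend) on genotype and naming scheme, with 5 residual degrees of freedom and Benjamini-Hochberg adjustment over all genes at 0.05; it was tested on simulated data. Precision is limited by the number of arrays. The members, lists and alternatives were chosen with earlier results of these data known. Named members were core subunits, isoform sets, the 3 smallest p and the most opposite gene per complex, and separated genes. Ndufa4 and Cox7a2l were placed with complex IV. The closing section gives the effect of other covariates, scalings, filters, probe-set rules, variance models and sample sets.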

Additional observations from a re-analysis of the deposited data

Results flagged for a closer look

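In 100 groups of 4 samples tested, 4 had 1 sample far from the others by Dixon's criterion (0.829), of which chance gives about 1 in 20 groups. Cyc1 was at 12.26 in knockout 1 and between 12.05 and 12.08 in the other knockout samples. Cox6a2 was at 8.69 in knockout 4 and between 7.37 and 7.51 in the others. Ndufb5 was at 11.42 in wild type 1 and between 11.83 and 11.84 in the others. The median signal of the complex I subunits was 11.22 in wild type 1 and between 10.93 and 10.98 in the other wild-type samples.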

How the results depend on the processing

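The count of members called was 0 under all 30 alternatives. The count over all genes, 1 as reported, was 0 with brighter genes only, 2 with array weights, 32 with the RO-titled samples only, 79 with the D/F-titled samples only, 4 without wild type replicates 1 and 3 together, and between 0 and 2 with each array left out. Fits of 1 scheme rest on 2 residual degrees of freedom. The median of all members relative to all genes (0.16) kept its sign throughout, from 0.019 to 0.25. That of the complex I assembly factors (0.19) became -0.028 without wild type replicates 1 and 3. That of complex II (0.13) became -0.0086 after quantile normalization and -0.035 when knockout 1 was also left out. That of the tissue-restricted isoforms (-0.040) reached 0.074 without wild type replicates 1 and 3. The median of all members relative to genes of the same signal (0.021) became -0.023 in RO-titled samples as deposited and -0.025 after quantile normalization. The causes were not tested. Members with an unadjusted p under 0.05 numbered from 0 (without knockout 1) to 6 (without wild type 4). Of 42 named members 30 changed sign under at least 1 alternative, 4 of them under quantile normalization. Combinations of quantile normalization with fewer samples, and references of the same signal, were chosen after seeing the data. A pseudocount does not apply to log2 values. No paired analysis was possible because the labels give no replicate numbers shared by the genotypes. Dim isoforms are limited by the lack of detection calls.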
